A study of Mus musculus with 6 samples.

Results

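The genes described are the potassium channel genes of the mouse, with symbols that begin Kcn, and the pacemaker channel genes, with symbols that begin Hcn and a number. They were taken by symbol from a thyroid expression array, and Kcnq1 and Kcne2 were left out. Each of the 91 genes was read by 1 probe set, and together they are 91 of 19505 named genes and of 22206 probe sets. The probe set of a gene was to be chosen by its brightness, which with 1 probe set each decided nothing. Kcnk1, Kcnk5 and Hcn2 were named in the rule with their differences between the groups already known, so their values are a description and support nothing further.

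Thyroid RNA came from 3 Foxe1flox/flox/Cre mice, called knockouts here, in which a floxed gene of the thyroid transcription factor Foxe1 can be deleted by Cre recombinase, and from 3 Cre control mice. All 6 carried Cre, had a C57BL/6J background and were dosed with tamoxifen at 0.05 g/kg into the abdomen on 5 days in a row, at 6 to 8 weeks of age. Thyroid was taken 2 weeks later, and RNA of 1 lobe per animal went onto 1 array. The sources used here do not name the promoter or cell type that drives Cre, so the cells open to deletion are not stated. Values are log2 intensities, on which a difference of 1 is a doubling.

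Potassium channels let potassium leave or enter the cell along its gradient and so set the resting membrane voltage. In an epithelium such as the thyroid follicle they also return the potassium that the sodium pump brings in, and that pump keeps up the sodium gradient on which iodide uptake runs. The families differ in what opens them. Two-pore-domain (K2P) channels leak at rest, inward rectifiers (Kir) pass current best near the resting voltage, voltage-gated (Kv) channels open on depolarisation, and others open with intracellular calcium or sodium. The HCN channels are opened by hyperpolarisation and bind cyclic AMP, the messenger that the thyrotropin receptor also uses.

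Facts of the arrays as a whole bear on what follows. Array medians lay between 5.62 and 5.69. The log2 value of Foxe1 was 7.28 ± 0.29 (SD, n = 3) for the controls, against 3.08 ± 0.23 (SD, n = 3) for the knockouts. Follicular cell markers were present, with thyroglobulin, Tg, at a mean of 18.98 over all arrays. Transcripts of other tissues were abundant too, such as the muscle actin gene Acta1 at 19.82 and the squamous keratin gene Krt4 at 19.92. In such bulk tissue a smaller number of cells of a type cannot be told apart from less RNA per cell. Control 1 and knockout 3 lacked signal of Y-linked genes (means of 3.04 and 2.65 over 3 genes, against 8.03 to 8.30 on the other arrays), so each group held 1 such array. The precision of every value is limited by the 3 arrays per group.

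Of the 91 genes, 4 rose past the threshold in the knockout and 0 fell, at an adjusted p of 0.05 in limma's test over all 22206 probe sets. They were Hcn2, Kcnk5, Kcnj15 and Kcnk1. Over all probe sets 0.252% were called higher and 0.0856% lower. Nothing is read from that contrast, since 3 of the 4 genes stood in the rule with their differences known. At an unadjusted p of 0.05, 12 channel genes were higher and 12 lower (13.2% each), where 6.61% and 6.13% of all probe sets were. All knockout arrays lay above all control arrays for 13 genes (14.3%) and below them for 14 (15.4%), against 9.28% and 8.78% of all probe sets. Kcnk1, Kcnk5 and Hcn2 are among the higher genes in both of these counts, so nothing is read from the shares of higher genes either. Differences ran from -1.53 (Kcnrg) to 2.99 (Kcnip3), with a median of -0.05 beside -0.02 over all probe sets. A mean under 4 over the 6 arrays, taken as near background, was found for 44 of the 91 genes, and their differences lay between -0.35 and 0.83. In 43 genes both groups were under 4, a count that leaves out any gene with a knockout mean above it, such as Hcn2 (3.45 to 5.74). Signals this low limit what these probe sets can show.

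The starts of the 4 genes that rose are shown because they are the regulatory sequences closest to the change, and because the deleted factor belongs to the forkhead family. Each line gives the 250 bases before the start listed in the RefSeq promoter table (build GRCm38.p6), 5′ to 3′ along the gene. Capitals mark matches to TAAACA, a motif of forkhead factors, or to TGTTTA, its reverse complement; shorter or other forms of forkhead motifs were not searched. The build named is that of the sequences, since none is stated for the array.
Hcn2: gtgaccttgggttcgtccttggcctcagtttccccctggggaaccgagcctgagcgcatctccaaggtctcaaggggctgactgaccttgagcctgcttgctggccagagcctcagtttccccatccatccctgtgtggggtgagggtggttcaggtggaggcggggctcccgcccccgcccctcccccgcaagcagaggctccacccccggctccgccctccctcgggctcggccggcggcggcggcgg
Kcnk5: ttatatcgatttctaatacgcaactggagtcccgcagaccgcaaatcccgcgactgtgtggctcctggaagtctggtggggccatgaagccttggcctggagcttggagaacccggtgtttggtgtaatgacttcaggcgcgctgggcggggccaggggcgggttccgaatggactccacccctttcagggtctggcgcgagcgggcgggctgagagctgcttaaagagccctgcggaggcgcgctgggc
Kcnj15: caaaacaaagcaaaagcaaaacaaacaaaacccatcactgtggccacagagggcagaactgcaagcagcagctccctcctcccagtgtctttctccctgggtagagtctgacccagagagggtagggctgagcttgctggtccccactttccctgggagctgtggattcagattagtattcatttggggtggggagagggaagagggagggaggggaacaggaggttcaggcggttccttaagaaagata
Kcnk1: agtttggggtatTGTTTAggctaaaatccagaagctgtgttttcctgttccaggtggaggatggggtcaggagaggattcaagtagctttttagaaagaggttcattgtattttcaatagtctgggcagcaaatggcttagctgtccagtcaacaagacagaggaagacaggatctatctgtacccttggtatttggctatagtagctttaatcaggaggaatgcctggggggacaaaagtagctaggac
These windows lie at chr10:79716384-79716633 on the plus strand for Hcn2, at chr14:20181783-20182032 on the minus strand for Kcnk5, at chr16:95257308-95257557 on the plus strand for Kcnj15 and at chr8:125994852-125995101 on the plus strand for Kcnk1. Kcnk1 held 1 match to TAAACA, whose first base is at position -238 (the last base before the listed start is -1), and the other 3 windows held 0 matches to these 6 letters. The Hcn2 window was 70.4% G and C with 16 CG dinucleotides, and the Kcnk5 window 62.8% with 19. The Kcnj15 window was 53.2% G and C with 1 CG, and the Kcnk1 window 44.4% with 0, beside medians of 52% and 6 over 27025 genes. The 4 windows differed widely in base composition. Of 70 channel genes matched to the table by symbol, 7 held TAAACA on either strand before at least 1 listed start (10%), against 13.5% of all genes in the table. Those 7 were Kcnab2, Kcnip1, Kcnip4, Kcnj13, Kcnk1, Kcnk13 and Kcnq5, with differences from -1.01 (Kcnj13) to 2.49 (Kcnk1).

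K2P channels form the background potassium conductance, each subunit carrying a pair of pore loops. Of the 14 genes 2 rose, Kcnk1 and Kcnk5, and 0 fell. Kcnk1 encodes TWIK-1, a weakly rectifying leak channel of many epithelia. Kcnk1 had values of 12.74, 12.30 and 11.03 on the control arrays, against 14.50, 14.56 and 14.49 on the knockout arrays. The knockouts were nearly equal and above every control, while control 3 was the lowest. The group means were 12.02 ± 0.89 and 14.52 ± 0.04 (SD, n = 3 each), so that Kcnk1 rose by 2.49 (SE 0.38, 5.63-fold, limma adjusted p = 0.0445). Kcnk5 encodes TASK-2, a channel opened by alkaline pH outside the cell and known from bicarbonate-transporting epithelium of the kidney. Kcnk5 had values of 8.23, 8.02 and 7.68 on the control arrays, against 10.44, 9.81 and 9.87 on the knockout arrays, again without overlap. The group means were 7.98 ± 0.28 and 10.04 ± 0.35 (SD, n = 3 each), and Kcnk5 rose by 2.06 (SE 0.24, 4.18-fold, limma adjusted p = 0.025).

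Kcnk6 encodes TWIK-2, a close relative of TWIK-1. Kcnk6 had values of 6.68, 8.56 and 7.94 on the control arrays, against 8.99, 8.99 and 9.62 on the knockout arrays, a difference of 1.47 that did not pass (SE 0.43, limma adjusted p = 0.195). Control 1 was the lowest, and without it the difference was 0.95; without the 2 arrays that lack Y-linked signal, left out as an alternative chosen after seeing the data, it was 0.74. The groups did not overlap for Kcnk6. The other 11 K2P genes differed by -0.43 (Kcnk3, the acid-sensitive TASK-1) to 0.28 (Kcnk10, the stretch- and lipid-sensitive TREK-2), all with overlapping groups and 8 of them with a mean under 4. Kcnk3 was at -0.23 without control 1 and at -0.15 without the 2 arrays that lack Y-linked signal. The median difference of the 14 was 0.08, and the high differences were those of Kcnk1, Kcnk5 and Kcnk6.

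**Figure D1:**
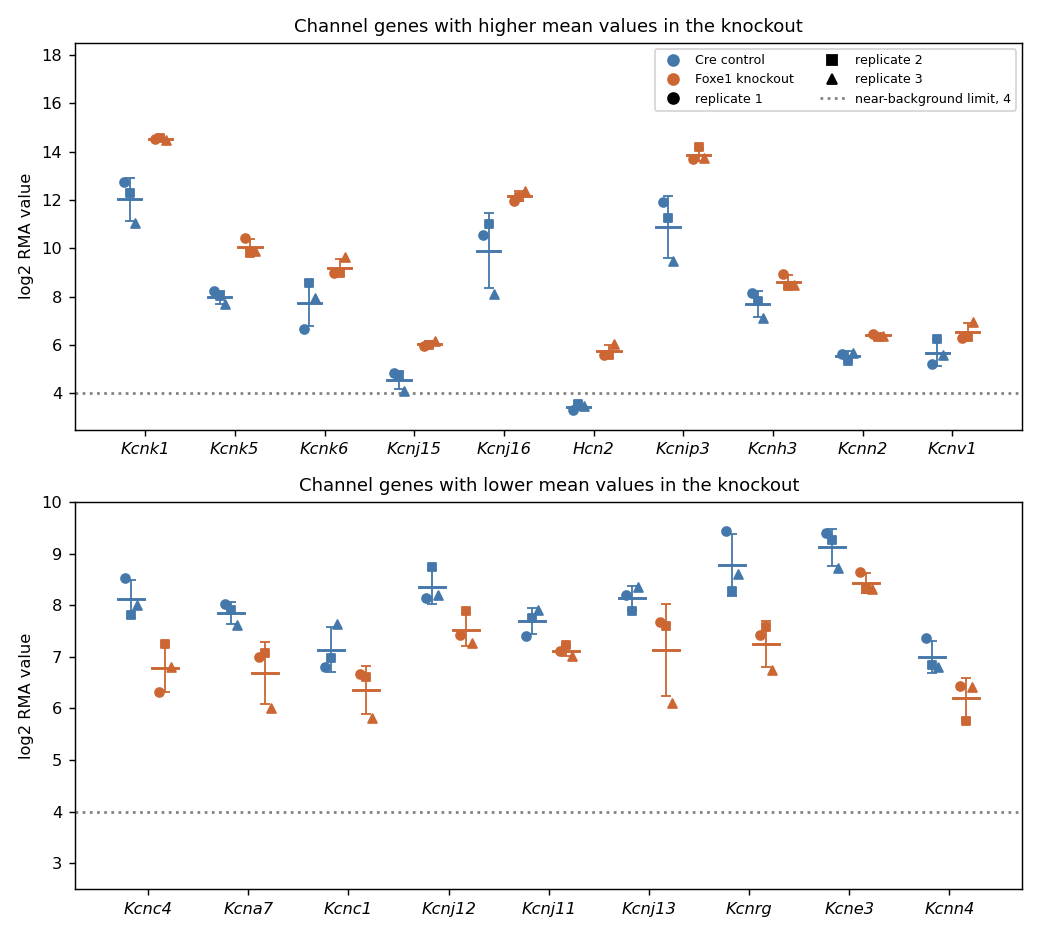
Log2 RMA values of 19 channel genes on each array, by group, with the mean (long bar) and SD (n = 3 each), and a dotted line at 4, below which a mean counts as near background. The 3 knockout values lie above the 3 control values for every gene of the upper panel and below them for every gene of the lower panel, which were picked for such differences after the values were seen. Levels of different genes are not comparable between probe sets.

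Inward rectifiers stabilise the resting voltage and recycle potassium across epithelia. Of the 15 genes 1 rose, Kcnj15, and 0 fell. Kcnj15 encodes Kir4.2. It had values of 4.84, 4.71 and 4.12 on the control arrays, against 5.95, 6.01 and 6.17 on the knockout arrays, which did not overlap. The group means were 4.56 ± 0.38 and 6.04 ± 0.11 (SD, n = 3 each), so that Kcnj15 rose by 1.49 (SE 0.23, 2.80-fold, limma adjusted p = 0.0433). Its control values were close to the limit of 4, where a fold tends to be understated.

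Kcnj16 encodes Kir5.1, a subunit known to form pH-sensitive channels together with Kir4.1 (Kcnj10) or Kir4.2. Kcnj16 had values of 10.56, 11.02 and 8.13 on the control arrays, against 11.96, 12.10 and 12.37 on the knockout arrays. Its difference of 2.24 did not pass (SE 0.63, limma adjusted p = 0.182), although the groups did not overlap. Control 3 was low for Kcnj16, and without it the difference was 1.35 (adjusted p = 0.122). The possible partner Kcnj10 had values of 3.01, 3.13 and 2.95 on the control arrays, against 3.43, 3.06 and 2.75 on the knockout arrays, near background in both groups.

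Of all 15 Kir genes, 10 had negative differences, where 11740 of 22206 probe sets did, and 7 of the 15 had a mean under 4. The median was -0.19, or -0.03 without control 3. Kcnj13 encodes Kir7.1, an epithelial channel known in thyroid follicular cells. It had values of 8.19, 7.88 and 8.35 on the control arrays, against 7.68, 7.60 and 6.10 on the knockout arrays, a difference of -1.01 (SE 0.40, limma adjusted p = 0.328). Knockout 3 was the lowest for Kcnj13, and without it the difference was -0.50 (-0.48 without the 2 arrays that lack Y-linked signal). Kcnj12 (Kir2.2), a classical inward rectifier of muscle, had values of 8.13, 8.73 and 8.20 on the control arrays, against 7.43, 7.88 and 7.27 on the knockout arrays (difference -0.83, limma adjusted p = 0.195). Kcnj11 (Kir6.2), the pore of the ATP-sensitive channel in muscle and endocrine cells, differed by -0.57 (limma adjusted p = 0.268). Kcnj2 (Kir2.1) differed by -0.40, and Kcnj8 (Kir6.1), the ATP-sensitive pore of smooth muscle and pericytes, by -0.24, each with overlapping groups. Kcnj8 ranged from -0.60 without control 1 to 0.12 without control 3. Kcnj6, Kcnj11, Kcnj13, Kcnk3, Kcnk6, Kcnc1, Kcnh5 and other genes outside the rule for named genes were named after their values were seen.

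HCN channels carry the pacemaker current of heart and nerve cells. Of the 3 genes measured 1 rose and 0 fell. Hcn2 had values of 3.30, 3.55 and 3.49 on the control arrays, against 5.57, 5.58 and 6.06 on the knockout arrays. Among all values of an array the controls were at percentiles 18.4 to 25.3, near background, and the knockouts at percentiles 49.1 to 53.6, so Hcn2 passed the mean of 4 only through the knockouts. The difference was 2.29 (3.45 ± 0.13 to 5.74 ± 0.28, SD, n = 3 each, SE 0.20, 4.89-fold, limma adjusted p = 0.00997), and, with the controls near background, the fold is likely understated. Hcn4, the main isoform of the cardiac pacemaker, had values of 3.96, 3.89 and 4.00 on the control arrays, against 3.48, 3.75 and 3.58 on the knockout arrays. These values for Hcn4 lay at or just under 4, and the difference of -0.35 did not pass (limma adjusted p = 0.459). Hcn3 lay between 2.40 and 2.96 on all 6 arrays. Of 12 listed markers of nerve and Schwann cells 9 were measured, with 0 past the threshold and 1 higher and 1 lower at an unadjusted p of 0.05 (median difference 0.25). S100b, a calcium-binding protein of Schwann cells, did not overlap between the groups and was higher in the knockout, as Hcn2 was, by 1.02 (6.16 ± 0.26 against 7.18 ± 0.21, SD, n = 3 each, limma adjusted p = 0.0956). Mbp, the myelin basic protein gene, differed by -1.33 without overlap (limma adjusted p = 0.183). The list mean lay between 6.42 and 7.04 on the control arrays and between 6.51 and 6.82 on the knockout arrays. The part of these cells in the rise of Hcn2 was not tested.

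Voltage-gated pore-forming genes were the largest class, with 25 members, of which 0 passed in either direction in limma's test; at an unadjusted p of 0.05, 2 were higher and 3 lower. A mean under 4 was found for 14. The median difference was -0.07, and 18 of 25 differences were negative, beside the share over all probe sets given above. Of the 3 lower genes, Kcnc4 and Kcna7 are known from skeletal muscle and Kcnc1 from fast-firing neurons. Kcnc4 (Kv3.4) had values of 8.53, 7.81 and 8.01 on the control arrays, against 6.31, 7.25 and 6.81 on the knockout arrays (difference -1.33, SE 0.29, limma adjusted p = 0.102). Kcna7 (Kv1.7) had values of 8.03, 7.90 and 7.61 on the control arrays, against 6.99, 7.07 and 6.00 on the knockout arrays (difference -1.16, SE 0.30, limma adjusted p = 0.15). Kcnc1 (Kv3.1) differed by -0.77 (limma adjusted p = 0.325), -0.52 without control 3 and -0.50 without knockout 3. In all 3 genes the knockouts lay below the controls, and knockout 3 was the lowest array for Kcna7 and Kcnc1. Without the 2 arrays that lack Y-linked signal Kcna7 was at -0.73.

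Of the 2 higher genes, Kcnh3 (Kv12.2), of the ether-à-go-go group, had values of 8.16, 7.81 and 7.11 on the control arrays, against 8.93, 8.45 and 8.48 on the knockout arrays (difference 0.93, SE 0.29, limma adjusted p = 0.218). Kcnq5 (Kv7.5), which carries a slow muscarine-sensitive current, had values of 10.04, 10.08 and 10.47 on the control arrays, against 10.63, 10.61 and 10.77 on the knockout arrays. The groups did not overlap in either. Kcnq5 differed by 0.47 (limma adjusted p = 0.349), less than Kcnk1, Kcnk5 and Kcnj15 did. Kcnh5 also separated the groups, at 0.50 and near background (3.03 and 3.53).

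Accessory subunits bind Kv channels and change how they gate or where they go. Of 12 genes 0 passed in limma's test, with 2 higher and 4 lower at an unadjusted p of 0.05 and a median difference of -0.01, and 6 had a mean under 4. Kcnip3 had the largest difference of all 91 genes. It encodes KChIP3, also known as DREAM or calsenilin, a calcium-binding protein that joins Kv4 channels and also binds DNA as a transcriptional repressor. Kcnip3 had values of 11.92, 11.27 and 9.46 on the control arrays, against 13.71, 14.17 and 13.73 on the knockout arrays. All knockouts were above all controls, and control 3 again was the lowest. The group means were 10.88 ± 1.27 and 13.87 ± 0.26 (SD, n = 3 each), a difference of 2.99 that did not pass (SE 0.53, limma adjusted p = 0.0665). Without control 3 it was 2.27. The adjusted p of Kcnip3 was 0.0420 to 0.0477 with a variance trend or array weights, and 0.0494 without control 1. The Kv4 pore genes Kcnd1, Kcnd2 and Kcnd3, with which KChIP3 assembles, differed by -0.18, -0.01 and 0.15 at means of 3.30, 2.99 and 4.67.

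Kcnrg, which encodes a soluble protein that hinders the assembly of Kv channels, had the most negative difference. Kcnrg had values of 9.44, 8.28 and 8.60 on the control arrays, against 7.42, 7.57 and 6.74 on the knockout arrays, a difference of -1.53 (SE 0.33, limma adjusted p = 0.106). Without control 1 the Kcnrg difference was -1.20, and without the 2 arrays that lack Y-linked signal it was -0.95. Kcne3, a single-span subunit of intestinal and airway epithelium, had values of 9.39, 9.26 and 8.71 on the control arrays, against 8.65, 8.31 and 8.32 on the knockout arrays (difference -0.69, limma adjusted p = 0.249). Kcnip4 differed by -0.69 and Kcnab2 by -0.64, and the groups overlapped for Kcnab2. Kcne1, the subunit of the slow cardiac current, stood near background on every array, at 2.91, 2.71 and 2.61 for the controls against 3.66, 3.62 and 3.43 for the knockouts (difference 0.83, limma adjusted p = 0.109).

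**Figure D2:**
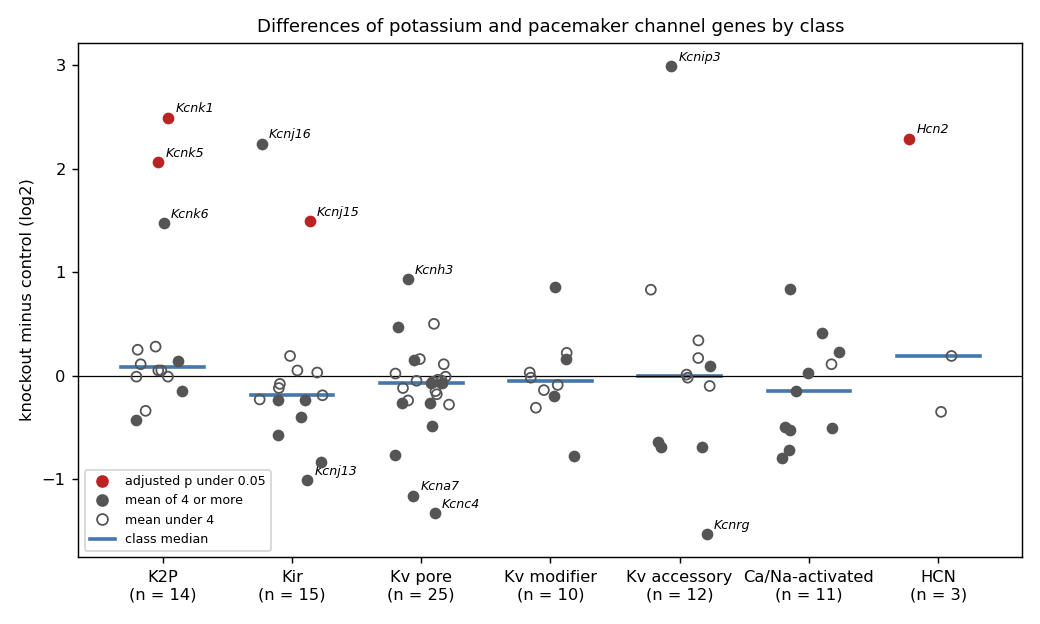
Knockout minus control difference (log2) of 90 channel genes by class, 1 point per gene, with the class median as a bar; the single non-coding gene Kcnq1ot1 is not drawn. Filled points have a mean of 4 or more, open points a mean under 4, and the 4 red points passed an adjusted p of 0.05. Class medians lie between -0.19 and 0.19, and the largest differences are those of single genes.

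Modifier subunits do not form channels alone but join Kv2 subunits. Of 10 genes 0 passed in limma's test, with 1 higher and 1 lower at an unadjusted p of 0.05 and a median difference of -0.06, and 6 had a mean under 4. Kcnv1 (Kv8.1) had values of 5.20, 6.24 and 5.59 on the control arrays, against 6.29, 6.36 and 6.97 on the knockout arrays (difference 0.86, limma adjusted p = 0.271). Control 2 of Kcnv1 stood just below the lowest knockout, and without the 2 arrays that lack Y-linked signal the difference was 0.41. Kcng4 (Kv6.4) had values of 3.95, 4.97 and 4.31 on the control arrays, against 3.63, 3.78 and 3.49 on the knockout arrays, a difference of -0.78 (limma adjusted p = 0.265) that was -0.50 without control 2. Its mean of 4.02 lies just inside the limit of 4, next to Kcnk13 at 3.90 just outside. Kcns3 (Kv9.3) differed by -0.20, with overlapping groups, and ranged from -0.41 to 0.04 without single arrays.

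The class of channels opened by calcium or sodium inside the cell held 11 genes. Kcnu1 and the beta subunits of the large-conductance BK channel were counted with them, and only 1 of the 11 had a mean under 4. None passed in limma's test (0 of 11, with 1 higher and 1 lower at an unadjusted p of 0.05), and the median difference was -0.15. Kcnn2 encodes SK2, a small-conductance channel. It had values of 5.64, 5.35 and 5.68 on the control arrays, against 6.47, 6.34 and 6.38 on the knockout arrays, which did not overlap (difference 0.84, SE 0.18, limma adjusted p = 0.102). Kcnn4, the intermediate-conductance channel of secretory epithelium and blood cells, had values of 7.36, 6.84 and 6.80 on the control arrays, against 6.43, 5.75 and 6.41 on the knockout arrays (difference -0.80, limma adjusted p = 0.228). Kcnmb1, the BK beta subunit of smooth muscle, differed by -0.51 and Kcnn1 by -0.15, both with overlapping groups. Kcnmb1 was at -0.29 without knockout 3 and at -0.25 without the 2 arrays that lack Y-linked signal, and Kcnn1 ranged from -0.36 to 0.19 without single arrays. The non-coding RNA gene Kcnq1ot1, which carries a Kcn symbol but encodes no channel, differed by -0.29 (limma adjusted p = 0.804), or by -0.63 to 0.08 without single arrays. It is antisense to a channel gene, and a probe set that reads both strands could not tell them apart.

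The levels of tissue markers differed between the same arrays. The 11 measured of 12 listed follicular cell markers were all higher in the knockout, under the deposited scaling and both others tried, and 1 of them, Hhex, passed (difference 2.46, limma adjusted p = 0.0273). Thyroglobulin itself differed by 0.04, at values of 18.67 to 19.27, where the highest value of any probe set was 19.93. Whether a difference is understated at such high values was not tested. The groups overlapped for Tg, Nkx2-1, Dio1 and Slc26a7, and Slc26a4 was near background (mean of 2.66). The mean of the 11 was 9.52, 9.42 and 8.00 for the controls, against 10.55, 10.23 and 10.54 for the knockouts. Control 3 was thus low and the knockouts were high, as for Kcnk1, Kcnip3 and Kcnj16. Of the other genes past the threshold, Kcnk5 (8.23, 8.02 and 7.68) and Kcnj15 (4.84, 4.71 and 4.12) also had their lowest control value in control 3. Hcn2 did not, with control values of 3.30, 3.55 and 3.49. Slc5a5 had the largest control SD of the 11 follicular markers, 2.90, with control values of 8.00, 8.00 and 2.97. Of the 12 channel genes higher at an unadjusted p of 0.05, 7 had their lowest control value in control 3. All 15 skeletal muscle markers were lower in the knockout, also under both other scalings, and 0 passed, with 7 at an unadjusted p of 0.05. The muscle mean was 16.34, 16.27 and 16.43 for the controls, against 15.87, 15.93 and 14.95 for the knockouts. Of the 12 channel genes lower at an unadjusted p of 0.05, 7 were lowest in knockout 3. Neither count of 7 has a share over all probe sets beside it, so nothing is read from them.

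Other lists also differed. All 10 measured of 11 listed airway markers were lower in the knockout (means of 13.91 to 14.96 in the controls and 13.21 to 13.30 in the knockouts, 0 passed, 7 at an unadjusted p of 0.05). Of 13 measured of 14 listed squamous and basal markers, 10 were higher (13.27 to 13.64 against 13.72 to 14.43, 0 passed, 5 higher and 1 lower at an unadjusted p of 0.05). Of the parathyroid markers all 4 measured of 6 listed had lower means (11.37 to 12.86 against 7.56 to 11.70, 0 passed, 1 at an unadjusted p of 0.05). The groups overlapped for each of these 4 genes. Pth had values of 18.24, 19.68 and 17.02 on the control arrays, against 3.56, 18.61 and 10.06 on the knockout arrays. Of the remaining marker lists, those of C cells, smooth muscle, endothelium, fibroblasts, macrophages and adipocytes had median differences of -0.59, -0.20, -0.02, -0.93, -0.40 and -0.45, with 0 members past the threshold and 1, 0, 1, 2, 4 and 0 at an unadjusted p of 0.05. The 4 macrophage markers were 1 higher and 3 lower, and those of the other lists were all lower. The part of these tissues in the differences of the channel genes was not tested.

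**Figure D3:**
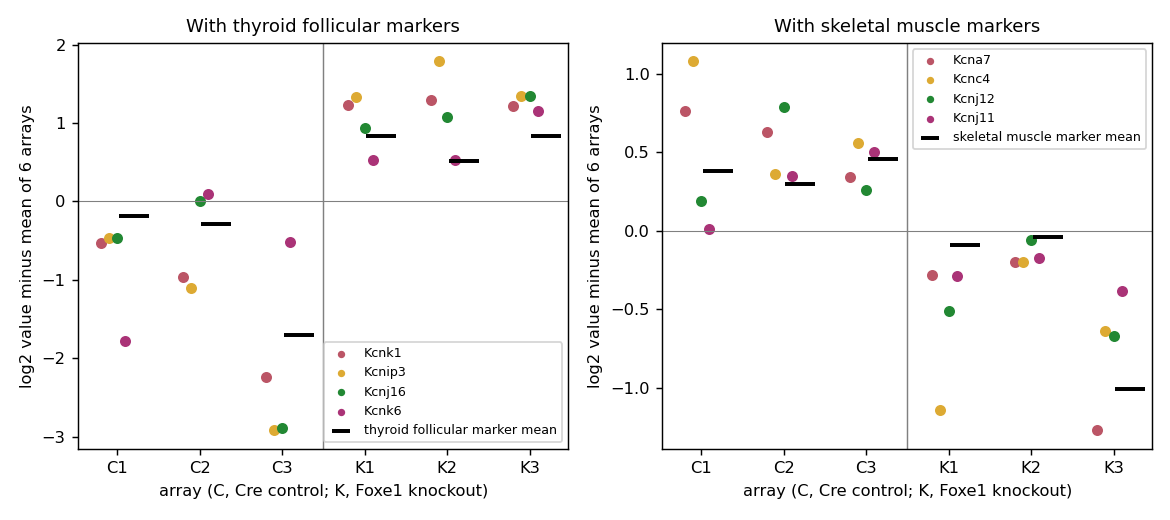
Log2 value minus its mean over the 6 arrays, for 4 channel genes in each panel (points) and for the mean of the thyroid follicular or skeletal muscle markers (bars), on control arrays C1 to C3 and knockout arrays K1 to K3. In the left panel the marker mean is lowest in control 3 (-1.71), where Kcnk1 is at -2.24, Kcnip3 at -2.92 and Kcnj16 at -2.89, while Kcnk6 is lowest in control 1 (-1.78). In the right panel the muscle markers are lowest in knockout 3 (-1.01), where Kcna7 is at -1.27, while Kcnc4 is lowest in knockout 1 (-1.14). The genes were picked after their values were seen, and Hcn2, Kcnk5 and Kcnj15, which passed the threshold, are not drawn.

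Other genes of potassium handling were taken from 4 lists, and 0 of their 54 measured members passed in limma's test. Among sodium and proton pump subunits and their FXYD regulators, 2 of 13 were higher and 3 lower at an unadjusted p of 0.05 (median difference -0.31). The FXYD regulator Fxyd4 had the smallest p, with 7.47, 7.35 and 6.09 for the controls against 8.93, 8.53 and 9.01 for the knockouts (difference 1.85, limma adjusted p = 0.0759). Control 3 was the lowest array for Fxyd4 too. Among cation-chloride cotransporters and their kinases 1 of 14 was higher and 1 lower (median -0.04), namely the kinase gene Wnk4 at 1.00 (limma adjusted p = 0.286) and Slc12a8 at -1.17 (limma adjusted p = 0.34).

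Among channel partner proteins 1 of 15 was higher and 3 lower at an unadjusted p of 0.05 (median -0.21). Lrrc26, the gamma subunit that lets BK channels of secretory epithelium open at rest, had values of 11.66, 11.07 and 10.51 on the control arrays, against 9.41, 9.56 and 8.75 on the knockout arrays. Its difference of -1.84 stood without overlap and just missed the threshold (SE 0.33, limma adjusted p = 0.0665). Abcc9, the regulatory partner of Kir6.1, differed by -0.53, and Abcc8 by -0.03. Among other cation channels permeable to potassium 0 of 12 were higher and 1 lower, the muscle TRIC channel Tmem38a (difference -0.68, limma adjusted p = 0.153; median of the list -0.16).

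The 4 calls changed without single arrays, and calls over all probe sets fell too, from 75 of 22206 (0.338%) with all 6. The latter numbered 43, 9 and 16 without control 1, 2 and 3, and 2, 15 and 4 without knockout 1, 2 and 3. Without control 1 there were 4 channel calls, with Kcnip3 in place of Kcnj15. Without control 3 there were 2 (Hcn2 and Kcnk1), and without control 2, knockout 2 or knockout 3 there was 1, Hcn2 each time. Without knockout 1 there were 0, with 23 channel genes at an unadjusted p of 0.05, and Hcn2 had an adjusted p of 0.0647. The differences themselves moved less: over these 6 fits Hcn2 lay between 2.13 and 2.37, Kcnk5 between 1.86 and 2.19, Kcnj15 between 1.27 and 1.63 and Kcnk1 between 2.00 and 2.85. Without both arrays that lack Y-linked signal, Hcn2 differed by 2.06, Kcnk5 by 2.27, Kcnj15 by 1.56 and Kcnk1 by 2.87. There 0 channel genes passed (21 at an unadjusted p of 0.05), beside 6 of all 22206 probe sets.

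**Figure D4:**
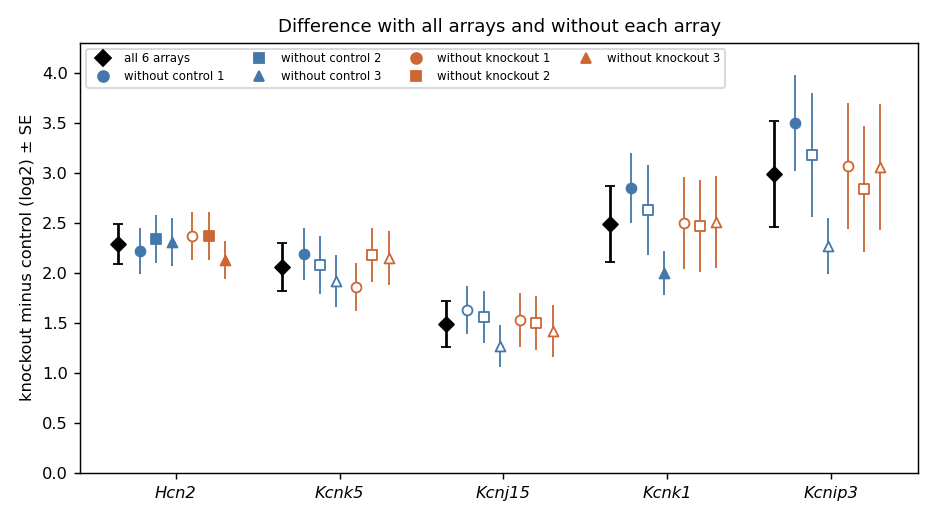
Knockout minus control difference (log2) ± SE of Hcn2, Kcnk5, Kcnj15, Kcnk1 and Kcnip3 with all 6 arrays (black diamonds) and without each array in turn; blue symbols leave out a control and orange symbols a knockout. Filled coloured symbols passed an adjusted p of 0.05 and open ones did not. Hcn2 passed in 5 of 6 such fits, Kcnk1 in 2, Kcnk5 and Kcnip3 in 1 and Kcnj15 in 0, and all differences stay above 1.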

How the data were processed

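Thyroid RNA of 3 knockout and 3 control mice was measured, 1 Affymetrix array per animal. The authors used, per the submitters' processing notes, Affymetrix Expression Console and RMA to make the deposited log2 values; its version, its settings and the genome build are not stated. RMA equalises the arrays, so a change shared by most transcripts is removed. Names of probe sets came from GEO's table for the platform (19572 of 22206 with 1 symbol) and were checked against RefSeq gene identifiers.

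All 22206 probe sets were tested with limma 3.58.1 in R 4.3.3 (lmFit, eBayes), as a two-sided test, and p-values were adjusted over all of them by Benjamini-Hochberg; the step was tested on simulated data. Figures used matplotlib 3.10.9 in Python 3.11.15. Whether animals share a litter, cage or day is not stated. The p-values set each group difference against the spread between these animals, which eBayes moderates over all probe sets.

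The genes, lists, classes and alternatives were chosen with earlier results of these data known. Named by rule were Kcnk1, Kcnk5, Hcn2, every gene past the threshold, and per class the 2 highest means and the 2 largest differences at a mean of 4 or more; other genes were named after their values were seen. Of 12 marker lists and 4 potassium handling lists, 171 of 191 genes were measured. Alternatives were 2 scalings, 2 variance models, array weights, 2 filters on dim probe sets, a replicate block, Y-linked signal as a covariate, a threshold of 0.1, leaving out each array, and, added after seeing the data, omitting both arrays that lack Y-linked signal. Each gene has 1 probe set, so averaging probe sets could not be tried.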

Additional observations from a re-analysis of the deposited data

How the results depend on the processing

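The 4 calls (Hcn2, Kcnk5, Kcnj15, Kcnk1) were the same genes under both scalings, the filter at 4 and the Y-linked covariate. A variance trend, array weights or a threshold of 0.1 added Kcnip3 (5 calls). The filter at 5 removed Hcn2, whose mean is below it (3 calls). Both filters used the mean over all 6 arrays. Hcn2 stayed at 4, and Kcnj15 at 5, only through their knockout values (control means of 3.45 and 4.56). Their calls under those filters therefore support nothing further. The count of channel calls ranged from 0 to 4 without single arrays, where 2 to 43 of all probe sets passed, beside 75 with all 6 arrays. It was 0 without the arrays that lack Y-linked signal, where 6 of all probe sets passed. Hcn2 (2.06), Kcnk5 (2.27) and Kcnk1 (2.87) no longer passed there. With the replicate number as a block 2 genes passed, Hcn2 and Kcnk5, while Kcnk1 was at 2.49 with an adjusted p of 0.0533. Animals of the same number deviated from their group means with correlations of -0.009, 0.076 and 0.017 over probe sets, and not every array correlated best with its own number, so the numbers were not taken to pair them. Leaving out 1 array gave 2.13 to 2.37 for Hcn2, 1.86 to 2.19 for Kcnk5 and 2.00 to 2.85 for Kcnk1. Of 520 values of 33 named genes under an alternative 7 changed sign, all of genes with small differences: Kcnj8 was at 0.12 without control 3, Kcnn1 at 0.19 without control 3 and 0.07 without knockout 3, Kcnq1ot1 at 0.08 without knockout 3 and 0.28 without the arrays that lack Y-linked signal, and Kcns3 at 0.04 and 0.05 likewise. Without single arrays these 4 genes ranged from -0.60 to 0.12 (Kcnj8), -0.36 to 0.19 (Kcnn1), -0.63 to 0.08 (Kcnq1ot1) and -0.41 to 0.04 (Kcns3). The cause was not tested.

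The median difference of all channel genes was -0.01 under both scalings, -0.07 with array weights, -0.24 with either filter on dim probe sets, which leaves fewer genes, and -0.11 to -0.02 without single arrays. With the filter at 4 the class medians were 0.81 for K2P, -0.32 for Kir, -0.26 for Kv and -0.67 for accessory genes. They were -0.32 for calcium- or sodium-activated and 2.29 for HCN genes, where only Hcn2 was left, through its knockout values. With the filter at 5 they were 1.77, -0.40, -0.49, -0.69 and -0.32 for the first 5 of these and 0.33 for modifier genes. The K2P medians rest on 6 genes with the filter at 4 and on fewer with the filter at 5. Kcnk1 and Kcnk5, named in the rule with their differences known, are among them, so nothing is read from these K2P medians. Without single arrays the class medians were 0.06 to 0.16 for K2P, -0.21 to -0.03 for Kir and -0.36 to 0.04 for calcium- or sodium-activated genes. Without the arrays that lack Y-linked signal the K2P median was -0.02. Signals near background limit what 44 of the 91 genes can show.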

Other observations

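Channel genes that are neighbours in the RefSeq gene order did not share a difference in every case. There were 10 pairs of measured channel genes with no protein-coding gene between them. On chromosome 11, Kcnj16 (difference 2.24) lies next to Kcnj2 (-0.40). On chromosome 14, Kcnk5 (2.06) lies next to Kcnk16 (0.25, mean of 3.37, near background). On chromosome 16, Kcnj15 (1.49) lies next to Kcnj6 (-0.08, mean of 3.67, near background). In the other 7 pairs both members differed by -0.51 to 0.11, among them the Kv1 cluster of Kcna3, Kcna2 and Kcna10 on chromosome 3. No test of these pairs was made.

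The genes nearest to the limit of 4 for the mean were Kcnk10 (3.75), Hcn4 (3.78), Kcnq3 (3.79), Kcnj5 (3.80), Kcna2 (3.81) and Kcnk13 (3.90) just outside, and Kcng4 (4.02), Kcna5 (4.05), Kcnmb2 (4.18), Kcnk2 (4.20) and Kcna6 (4.21) just inside. Their differences ran from -0.78 (Kcng4) to 0.28 (Kcnk10).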
